A study of Mus musculus with 4 samples.

Results

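ATP-binding cassette (ABC) transporters, organic anion transporting polypeptides (SLCO) and carriers of the SLC22 family were described in bulk RNA sequencing of mouse liver tumours. Genes were chosen by symbol, taking every gene of ABC subfamilies A to G, every SLCO gene and every SLC22A gene with 10 or more reads summed over the 4 libraries. Of 90 matching symbols, 68 reached that number (47 ABC, 9 SLCO and 12 SLC22), out of 48526 gene identifiers in the tables. At the edge of this cut, Slc22a14 entered with 10 reads (2 and 2 in AKK, 3 and 3 in PBS), and Slc22a27 stayed out with 6 (6 and 0 in AKK, 0 and 0 in PBS). The first group is the AKK group (AKK 1 and AKK 2), C57BL/6 mice given 5000000000 colony-forming units of Akkermansia muciniphila, a mucin-degrading gut bacterium, by mouth. The second is the PBS group (PBS 1 and PBS 2), C57BL/6 mice given phosphate-buffered saline. In both groups feeding began 2 weeks before a methionine- and choline-deficient (MCD) diet, which produces fatty liver, and went on through the 2 weeks of that diet. Luciferase-labelled RIL-175 cells, a single mouse hepatoma line, were then implanted in the liver, and feeding paused for 6 days before it was resumed. Neither age nor sex of the mice is stated in the labels.

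ABC transporters use ATP to move lipids, bile acids, conjugated drugs, peptides and metals across membranes, mostly outward or into organelles. SLCO and SLC22 proteins need no ATP of their own and mostly carry organic anions, cations and zwitterions such as carnitine into cells. In the liver, hepatocytes take up bile acids, bilirubin and drugs from blood through SLCO and SLC22 carriers on the sinusoidal side and send them into bile through ABC pumps of the canalicular membrane. Subfamilies E and F carry the ABC name but lack membrane-spanning parts and act in translation.

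The libraries held 48912489 to 59027227 reads on genes. The labels call the libraries of a group biological replicates without saying that they came from different mice, and the tests below therefore speak only for the spread of these 4 libraries, which may be technical. The tables of AKK and PBS are named in different styles, and if that reflects separate cohorts, a cohort effect and the effect of feeding cannot be told apart. Expression is given as CPM, the reads of a gene relative to the size of its library, scaled between libraries by the TMM method, and 3 reads, the limit that a count of 0 allows, are worth 0.0514 to 0.0631 CPM (counting error only). In bulk tissue, fewer cells of a type and less RNA per cell cannot be told apart. Of the markers of the labelled tumour, Afp read 8.55 and 10.3 CPM in AKK against 7.18 and 11.1 CPM in PBS, and Gpc3 0.0177 and 0.0685 against 0.731 and 0.336 CPM.

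Most transporters typical of hepatocytes, though not Abcb11 or Slco2b1, were close to 0 in the PBS tumours and higher in AKK 1, while the 27 most abundant members differed by at most 2.42-fold between the groups (Abca5). Of 53 members that passed the edgeR filter on low counts, 0 passed an adjusted p of 0.05 in edgeR's quasi-likelihood test, where 0.00572% of all 17479 genes tested did. An unadjusted p under 0.05 was reached by 6 members higher in AKK (11.3%, against 6.7% of all genes) and by 6 lower in AKK (11.3%, against 8.62%). DESeq2 called 5 members higher (9.43%, against 2.08% of all genes with an adjusted p) and 2 lower (3.77%, against 3.04%). Among the higher ones were Abcc2, Abcb4, Slco1b2 and Slc22a18, and the lower ones were Abca5 and Abca8a. Both AKK libraries lay above both PBS libraries in 8 members (15.1%, against 26.7% of all genes) and below both in 20 (37.7%, against 24.7%), and the groups overlapped in 25. With upper-quartile scaling the last 20 became 17. The median log2 fold change of the 53 members was -0.27, against 0.02 over all genes tested. Of the 53, 36 were negative, against 8433 of all 17479 genes tested. With a library left out, a group holds a single library, so calls from those fits are not read as results about the members. Without PBS 1, PBS 2, AKK 1 or AKK 2, 61, 60, 54 and 60 members were tested. Of these, 16, 14, 10 and 20 lay above and 26, 33, 28 and 31 below. With a single library left in a group, the groups lie apart more easily for any gene. The share over all genes was not taken there, so these counts cannot be read as particular to the members.

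**Figure D1:**
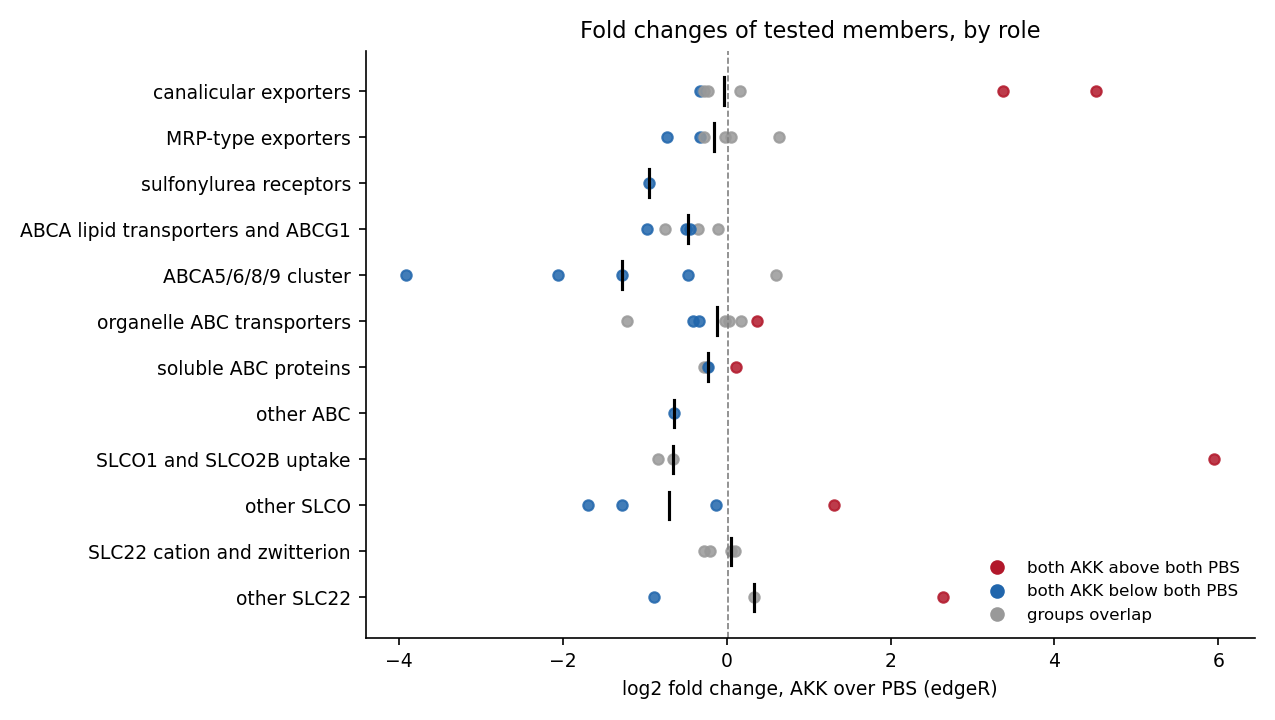
Each dot is a tested member, placed by its log2 fold change (AKK over PBS, edgeR) on the horizontal axis and by role on the vertical axis. Black ticks are the medians of all tested members of a role and the dashed line is the median of all genes tested (0.02). A reader should see that most roles lie slightly below 0, that the dots above 2 are Abcb4, Abcc2, Slco1b2 and Slc22a18, and that the lowest dot (-3.91) is Abca8a.

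The highest levels belonged to proteins of translation, an orphan carrier and the prostaglandin transporter. As reads per kilobase of exon, computed from the TMM-scaled CPM (RPKM), Abce1, which recycles ribosomes, ranked first at 39.7 and 50.6 RPKM in AKK against 64.5 and 45.2 RPKM in PBS. Its lowest value lay above every value of the next member. Abcf1, a translation initiation factor, followed at 36.4 and 36.6 against 33.4 and 33.6 RPKM, Slc22a23, an orphan carrier, at 19.9 and 26.4 against 51.8 and 33.9 RPKM, and Abcf2 at 24.6 and 34.7 against 36.2 and 33.8 RPKM. From Abcf1 to Slco2a1 each member's range over the libraries overlapped that of the next, so that their order lies within the spread. Slco2a1, the prostaglandin transporter, was even across the libraries at 23.8 and 22.5 RPKM in AKK against 23.9 and 26.9 RPKM in PBS. The next was Abcb1a, a P-glycoprotein that exports many drugs, at 16.4 and 15.1 against 19.3 and 20 RPKM, below every Slco2a1 value. From rank 6 to rank 20 (Abcb8, 4.47 and 5.00 against 4.52 and 5.09 RPKM), each member's range over the 4 libraries overlapped that of the next. Of 27 members with a mean of 10 CPM or more, 24 (88.9%) had a log2 fold change within 0.5 of 0, against 75.3% of the 9395 genes at that level. Their fold changes ran from -1.28 (Abca5) to 0.18 (Abcd4), and 22 (81.5%) were negative, against 50.1% of the genes at that level.

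**Figure D2:**
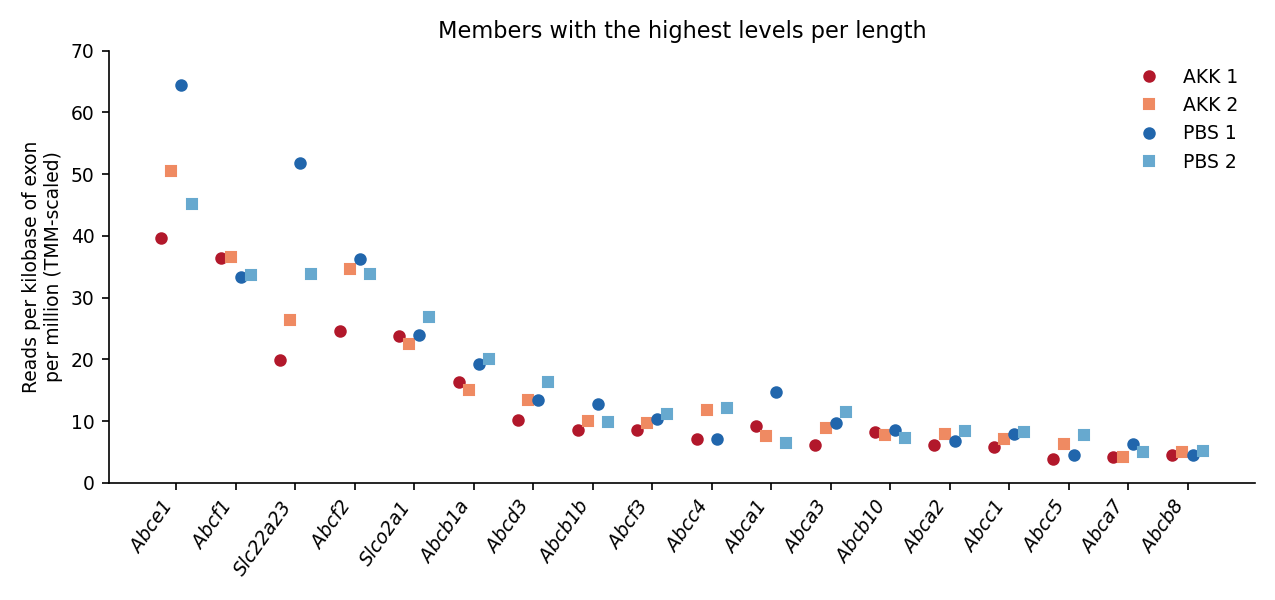
The vertical axis gives the level per length (RPKM, TMM-scaled) of members among the 20 highest, 1 point per library with AKK left of PBS for each gene. Levels run from 64.5 for Abce1 in PBS 1 down to 3.86 for Abcc5 in AKK 1, and PBS 1 stands above the other libraries for Abce1, Slc22a23 and Abca1.

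Among the tested pumps of the canalicular membrane, Abcc2 had the largest log2 fold change. Abcc2 (ENSMUSG00000025194.5), which exports bilirubin and glutathione conjugates into bile, read 6.37 and 2.60 CPM in AKK against 0.0375 and 0.357 CPM in PBS. Members this low in PBS passed the filter through their AKK reads. Both AKK libraries lay above both PBS libraries, with a log2 fold change of 4.51 (SE 1.03, adjusted p = 0.193 in edgeR and 5.32e-05 in DESeq2). Abcb4 (ENSMUSG00000042476.12), the floppase that delivers phosphatidylcholine to bile, read 5.59 and 0.908 CPM in AKK against 0.412 and 0.21 CPM in PBS. The groups were again apart, but AKK 2 lay closer to the PBS values than to AKK 1 in CPM (log2 fold change 3.37, SE 0.98, adjusted p = 0.245 in edgeR and 0.00879 in DESeq2). Leaving out AKK 1 lowered the edgeR log2 fold change of Abcb4 to 1.53 and that of Abcc2 to 3.73, and without PBS 1 that of Abcc2 was 3.63. Without PBS 2 it was 6.79 for Abcc2. Abcg5 and Abcg8, whose proteins pair to secrete sterols into bile, had 39 and 5 reads and 25 and 5 reads in AKK against 0 and 0 reads each in PBS. The AKK means were at least 6.5-fold (Abcg5) and 4.42-fold (Abcg8) above 3 reads in each PBS library. These bounds leave out the spread within AKK. AKK 2 read 0.0856 CPM for each gene, close to the 0.0562 and 0.0631 CPM that 3 reads are worth in PBS. Neither gene passed the filter for the test. Abcb11, the bile salt export pump, was not higher in both AKK libraries: it read 1.80 and 0.188 CPM in AKK against 0.881 and 0.883 CPM in PBS. The AKK libraries stood on either side of the PBS pair, and the log2 fold change was 0.17 (SE 0.97, adjusted p = 0.943 in edgeR).

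**Figure D3:**
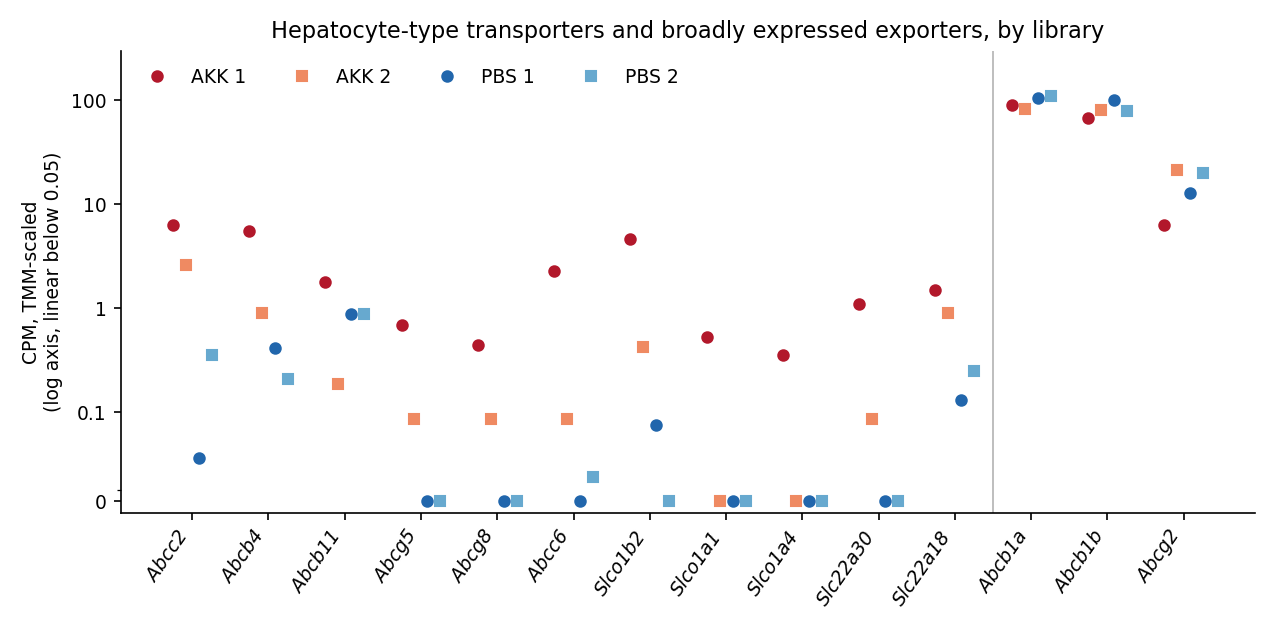
The vertical axis gives CPM on a log scale (linear below 0.05, so that 0 can be drawn), with 1 point per library and AKK left of PBS for each gene. Left of the grey line are transporters that are typical of hepatocytes, with Slc22a18, and right of it 3 broadly expressed exporters: Abcg5, Abcg8, Slco1a1, Slco1a4 and Slc22a30 sit at 0 in both PBS libraries, whereas Abcb1a lies between 82.8 and 109.6 CPM in all 4.

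The promoters of these genes are shown because the liver pumps and carriers differed among themselves (Abcb11 from Abcc2, Slco1b2 and Abcg5). Each run covers 250 bases before to 50 bases after the RefSeq gene start on build GRCm38.p6, 5′ to 3′ on the gene's strand. Capitals mark 3 short motifs on either strand: AGGTCA (the core motif bound by nuclear receptors, TGACCT on the other strand), GTTAAT (a part of the HNF1 site, ATTAAC on the other strand) and TATAAA (the TATA box letters, TTTATA on the other strand). The windows are chr19:43782058-43782357 (+) for Abcc2, chr2:69342567-69342866 (-) for Abcb11, chr17:84682962-84683261 (-) for Abcg5, chr6:141629268-141629567 (+) for Slco1b2 and chr6:141946913-141947212 (-) for Slco1a1.
Abcc2: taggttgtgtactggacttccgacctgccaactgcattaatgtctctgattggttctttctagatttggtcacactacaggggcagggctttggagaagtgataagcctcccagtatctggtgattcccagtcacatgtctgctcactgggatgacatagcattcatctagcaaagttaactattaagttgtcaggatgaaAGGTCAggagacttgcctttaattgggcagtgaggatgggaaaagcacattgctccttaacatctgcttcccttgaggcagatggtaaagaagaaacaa
Abcb11: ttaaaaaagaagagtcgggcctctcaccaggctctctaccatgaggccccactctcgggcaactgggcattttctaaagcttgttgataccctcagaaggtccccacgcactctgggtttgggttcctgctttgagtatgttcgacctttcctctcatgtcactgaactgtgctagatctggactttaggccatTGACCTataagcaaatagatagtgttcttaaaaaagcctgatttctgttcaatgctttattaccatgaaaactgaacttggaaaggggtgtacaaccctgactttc
Abcg5: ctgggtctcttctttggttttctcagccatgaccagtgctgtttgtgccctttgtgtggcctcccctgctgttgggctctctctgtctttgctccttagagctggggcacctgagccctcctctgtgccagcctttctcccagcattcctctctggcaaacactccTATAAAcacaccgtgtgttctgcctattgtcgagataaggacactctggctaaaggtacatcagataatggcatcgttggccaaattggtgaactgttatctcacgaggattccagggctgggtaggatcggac
Slco1b2: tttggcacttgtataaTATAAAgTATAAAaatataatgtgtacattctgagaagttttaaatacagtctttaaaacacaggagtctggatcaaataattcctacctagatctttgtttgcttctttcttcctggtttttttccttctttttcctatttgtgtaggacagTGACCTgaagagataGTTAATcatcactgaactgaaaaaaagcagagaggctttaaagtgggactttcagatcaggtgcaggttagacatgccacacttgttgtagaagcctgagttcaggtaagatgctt
Slco1a1: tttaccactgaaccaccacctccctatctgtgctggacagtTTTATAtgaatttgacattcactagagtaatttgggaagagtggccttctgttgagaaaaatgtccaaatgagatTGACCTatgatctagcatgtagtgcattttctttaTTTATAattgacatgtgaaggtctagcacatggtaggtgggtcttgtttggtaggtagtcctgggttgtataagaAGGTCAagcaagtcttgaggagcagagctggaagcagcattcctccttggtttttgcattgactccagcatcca
AGGTCA letters stood at bases -49 to -44 in Abcc2, -56 to -51 in Abcb11, -81 to -76 in Slco1b2, and -134 to -129 and -24 to -19 in Slco1a1, counted from the gene start. Slco1b2 also held GTTAAT at -66 to -61, and TATAAA letters stood at -84 to -79 in Abcg5, at -234 to -229 and -227 to -222 in Slco1b2, and at -209 to -204 and -99 to -94 in Slco1a1. Of 52 members with an entry, 9 (17.3%) held AGGTCA, against 16.3% of all 32851 promoters in the table. For GTTAAT it was 1 (1.92%) against 7.1%, and for TATAAA 11 (21.2%) against 13.6%. Members were counted once each if any of their promoters held the motif, and the background promoter by promoter. The paired shares are therefore not strictly alike. Abcc2 and Abcb11, which differed in their values, both held AGGTCA. Abcg5 and Abcg8 are transcribed away from each other, and their windows share 209 bases, so the run printed for Abcg5 also covers most of the Abcg8 window. The TATAAA letters of Abcg5 lie in the shared bases. Both genes are among the 11 members with TATAAA, so that site is counted for each of them.

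The largest fold change of the tested members belonged to an uptake carrier of the sinusoidal membrane. Slco1b2 (ENSMUSG00000030236.10), the rodent counterpart of the human OATP1B carriers of bilirubin and statins, read 4.67 and 0.428 CPM in AKK (264 and 25 reads) against 0.075 and 0 CPM in PBS (4 and 0 reads). Both AKK libraries were higher, by a log2 fold change of 5.95 (SE 1.59, adjusted p = 0.228 in edgeR and 0.000772 in DESeq2). Leaving out AKK 1 lowered the edgeR log2 fold change to 3.38 for Slco1b2. Without PBS 1 it was 10.1, but the PBS library then left holds 0 reads of Slco1b2. That value therefore depends on the prior count and is not a measured fold. For the next carriers AKK 1 held nearly all reads. Slco1a1 and Slco1a4, which take up bile acids and steroid conjugates, had 30 and 0 reads and 20 and 0 reads in AKK against 0 and 0 reads each in PBS. These AKK means are at least 4.45-fold and 2.97-fold higher than 3 reads in each PBS library, and without AKK 1 no read is left. Reads shared among close Slco1a copies, or among the Slc22a26 to Slc22a30 copies, may be lost or split, so their levels are uncertain. Slc22a30 had 62 and 5 reads in AKK against 0 and 0 in PBS. Its AKK mean was at least 9.91-fold above 3 reads in each PBS library, a bound carried mostly by AKK 1. Abcc6, a basolateral exporter of hepatocytes mutated in human pseudoxanthoma elasticum, had 129 and 5 reads in AKK against 0 and 1 reads in PBS. The ratio between the pooled scaled counts was 118 (95% counting interval 20.8 to 4680, exact binomial). That interval holds counting error only and leaves out the spread between libraries, and AKK 1 held most of the reads. Slc22a7, the anion carrier OAT2 of liver, had 1 and 2 reads against 0 and 0 and stayed under the cut of 10 reads. Slco2b1, found on hepatocytes and other cells, overlapped between the groups at 1.45 and 0.24 CPM in AKK against 1.52 and 1.14 CPM in PBS.

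General hepatocyte markers are given beside these transporters. Of the 10 hepatocyte markers, 8 lay above both PBS libraries in both AKK libraries, and these 8 were highest in AKK 1. Their summed level (Alb, Apoa1, Ttr, Fgb, Ahsg, Serpina1c, Cps1 and Tat, a set made after their values were seen) was 459.9 and 129 CPM in AKK against 1.01 and 2.73 CPM in PBS. The other 2 markers did not share this: Hnf4a read 48.7 and 119 CPM in AKK against 74.9 and 168 CPM in PBS, and Apob 164 and 468 against 241 and 584 CPM. Over all 10 markers the sums were 672 and 716 against 317 and 755 CPM, and none of the 10 was at 0 in both PBS libraries. A set of 9 liver transporters was likewise grouped after their values were seen (Abcc2, Abcb4, Abcg5, Abcg8, Abcc6, Slco1a1, Slco1a4, Slco1b2 and Slc22a30). It is without Abcb11, Slc22a7 and Slco2b1. The summed level of the 9 was 22 and 4.28 CPM in AKK against 0.524 and 0.588 CPM in PBS. Of those left out, Abcb11 read 1.80 and 0.188 CPM in AKK against 0.881 and 0.883 CPM in PBS. Slco2b1 read 1.45 and 0.24 CPM in AKK against 1.52 and 1.14 CPM in PBS. Within AKK, the ratio of AKK 1 to AKK 2 was 6.14 for Alb, 9.12 for Ttr and 1.48 for Fgb, and 2.45 for Abcc2, 6.16 for Abcb4, 10.9 for Slco1b2 and 26.6 for Abcc6. Kupffer cell markers, which mark the resident macrophages of liver, were also higher in both AKK libraries, 4 of 4, with sums of 8.42 and 1.97 against 0.0937 and 0.021 CPM. The part of either marker list in the transporter values was not tested.

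**Figure D4:**
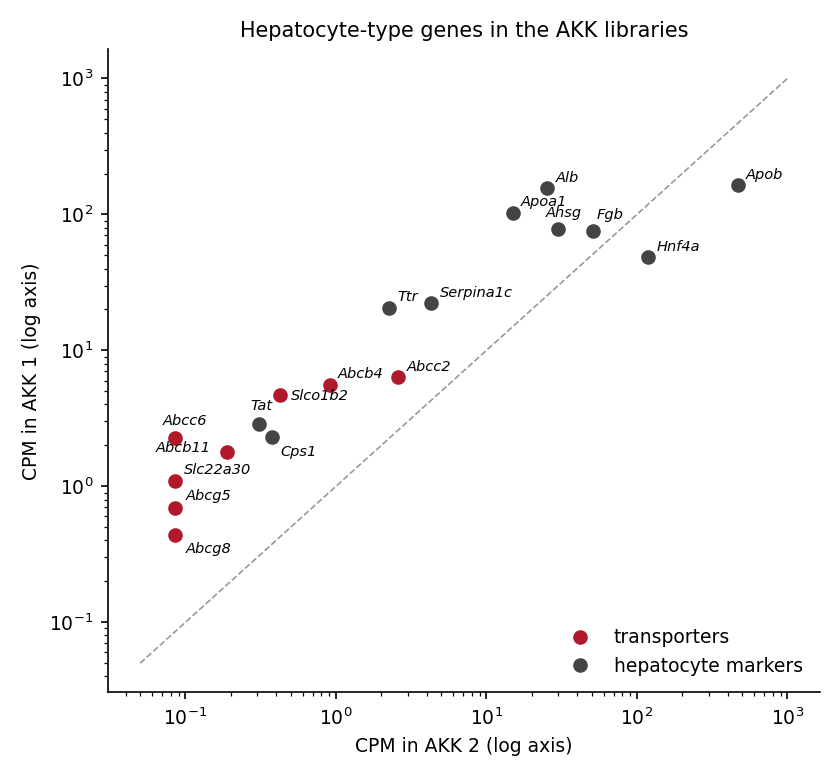
Each point is a gene, placed by its CPM in AKK 2 (horizontal, log axis) and in AKK 1 (vertical, log axis), with transporters in red and the 10 hepatocyte markers in grey. The dashed line marks equal levels: all transporters drawn and 8 markers lie above it (Slco1a1 and Slco1a4, with 0 reads in AKK 2, and Slc22a7, with 1 read in AKK 1 and 2 in AKK 2, are not drawn), and Apob and Hnf4a lie below it.

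Companion genes of bile acid and drug transport and its regulators formed a list of 17, of which 11 passed the filter. Of these, 0 passed an adjusted p of 0.05 in edgeR. At an unadjusted p under 0.05 in edgeR, 3 were higher and 0 lower, where 6.7% and 8.62% of all genes tested were. Nr1i2 (PXR) and Nr1i3 (CAR), the xenobiotic receptors that induce hepatic transporters, were low in PBS and passed the filter through their AKK reads. Nr1i2 had 76 and 16 reads in AKK against 0 and 0 reads in PBS, and Nr1i3 had 270 and 22 reads in AKK against 0 and 1 reads in PBS (edgeR adjusted p = 0.194 each). Nr1h3, the sterol receptor LXR alpha that drives Abca1, Abcg5 and Abcg8, read 17.6 and 11.7 CPM in AKK against 8.98 and 5.99 CPM in PBS (log2 fold change 0.97, SE 0.35, adjusted p = 0.297 in edgeR). Nr1h4, the bile acid receptor FXR that drives Abcb11, read 16.2 and 12.7 CPM in AKK against 19.3 and 20.3 CPM in PBS, lower in both AKK libraries (log2 fold change -0.45, SE 0.24, adjusted p = 0.409 in edgeR). The bile acid uptake carrier Slc10a1 had 27 and 5 reads in AKK against 0 and 0 reads in PBS, and Slc47a1, a drug efflux carrier, 87 and 8 against 3 and 2 reads. Tap1, an ABC half-transporter of antigenic peptides outside the symbol rule, was spread more widely within PBS than between the groups (58.4 and 34.8 CPM in AKK against 29.6 and 92.6 CPM in PBS).

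Among the exporters linked to multidrug resistance, Abcb1a, Abcb1b and Abcc1 were abundant in every library, and 0 of the group was called by edgeR or DESeq2. The pair Abcb1a and Abcb1b together encode mouse P-glycoprotein. Abcb1a read 89.6 and 82.8 CPM in AKK against 106 and 109.6 CPM in PBS, lower in both AKK libraries but by a log2 fold change of -0.32 (SE 0.17, adjusted p = 0.415 in edgeR). Abcb1b overlapped at 67.9 and 80.8 against 101 and 79.2 CPM. Reads shared by these near-identical genes may be lost or split, so the level of each one is uncertain. Abcg2, which exports urate and drugs, differed more within AKK than between the groups, at 6.35 and 21.5 CPM in AKK against 12.8 and 20 CPM in PBS. Abcc1, an exporter of leukotrienes and glutathione conjugates, read 86.9 and 108 CPM in AKK against 118 and 124 CPM in PBS (log2 fold change -0.32, SE 0.19, adjusted p = 0.464 in edgeR). Abcc3, a basolateral exporter of glucuronides, was lower in both AKK libraries at 7.48 and 8.97 CPM against 11.9 and 15.5 CPM in PBS (log2 fold change -0.73, SE 0.29, unadjusted p = 0.0449 and adjusted p = 0.318 in edgeR). Abcc4 and Abcc5, exporters of cyclic nucleotides, overlapped between the groups: Abcc4 read 45.4 and 75.6 CPM in AKK against 45.2 and 77.4 CPM in PBS, and Abcc5 41.2 and 67.1 against 47.7 and 83.5 CPM. Abcc10 read 12.1 and 10.7 CPM in AKK against 8.70 and 13.4 CPM in PBS, and Abcc12 1.06 and 0.291 against 0.731 and 0.126 CPM, and both overlapped.

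The 2 lowest fold changes of the tested members, those of Abca8a and Abca9, belonged to a row of ABCA genes on chromosome 11. Abca8a (ENSMUSG00000041828.15) read 0.283 and 0.12 CPM in AKK (16 and 7 reads) against 3.92 and 2.19 CPM in PBS (209 and 104 reads). Both AKK libraries were far below both PBS libraries, with a log2 fold change of -3.91 (SE 0.67, adjusted p = 0.182 in edgeR and 4.26e-06 in DESeq2). Abca5 (ENSMUSG00000018800.14), a lysosomal transporter, read 20 and 23.4 CPM in AKK against 55.1 and 49.8 CPM in PBS. Its groups were tight and apart, with a log2 fold change of -1.28 (SE 0.19), and it had the smallest unadjusted p of the tested members in edgeR (0.000664, adjusted p = 0.182, and 7.88e-05 adjusted in DESeq2). Abca9 read 0.336 and 0.685 CPM in AKK against 3.24 and 1.03 CPM in PBS, lower in both AKK libraries (log2 fold change -2.06, SE 0.74, adjusted p = 0.292 in edgeR and 0.118 in DESeq2). Abca8b also lay lower, but by less, at 1.04 and 0.651 CPM against 1.24 and 1.11 CPM. Abca6, which lies between Abca9 and Abca5, overlapped at 0.743 and 0.0856 CPM in AKK against 0.394 and 0.147 CPM in PBS. The median of these 5 was -1.28, and it ran from -1.64 without AKK 1 to -1.01 without PBS 1. The GENCODE M21 annotation places no other protein-coding gene between neighbours of this row. A second row, on chromosome 5, holds Abcb1a, Abcb1b and Abcb4 with none between them, and there both AKK libraries lay above PBS for Abcb4 and below PBS for Abcb1a.

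**Figure D5:**
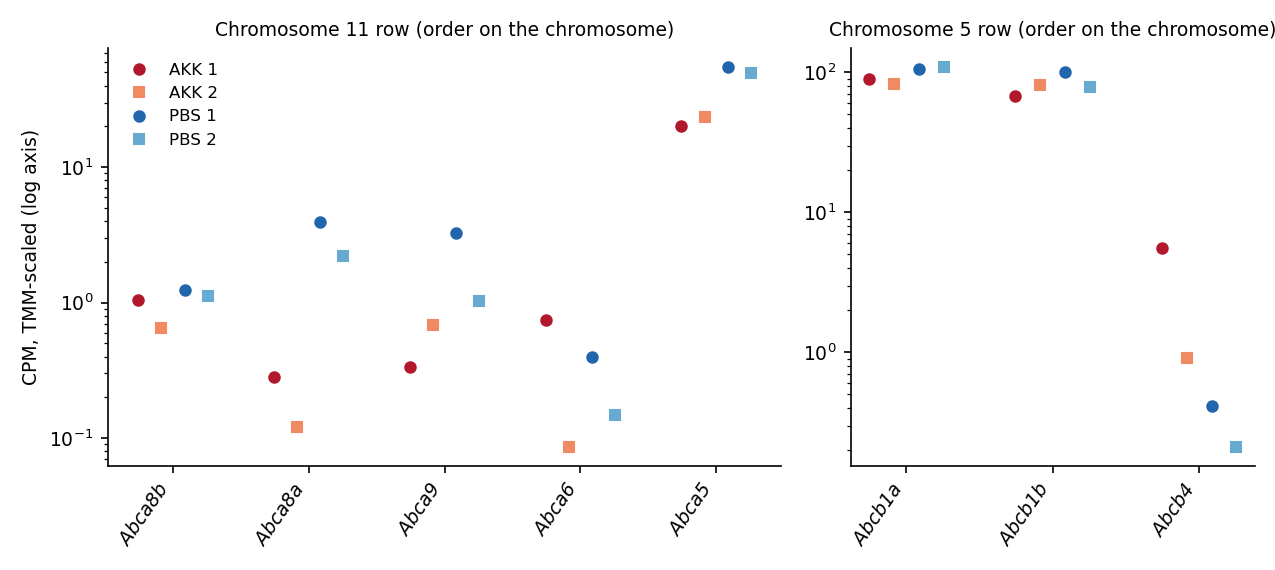
The vertical axes give CPM on log scales for 2 rows of neighbouring genes in their order on the chromosome, 1 point per library with AKK left of PBS for each gene. In the chromosome 11 row Abca8b, Abca8a, Abca9 and Abca5 are lower in both AKK libraries and Abca6 overlaps, and in the chromosome 5 row the highest point of Abcb4 is AKK 1 at 5.59 CPM.

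Abcc9, a potassium channel regulator of muscle and vascular mural cells, followed the ABCA row in direction. It read 4.74 and 6.66 CPM in AKK against 12.6 and 9.55 CPM in PBS, with both AKK libraries lower (log2 fold change -0.95, SE 0.34, unadjusted p = 0.0302 and adjusted p = 0.288 in edgeR). Its relative Abcc8 had 5 and 3 reads against 18 and 9 reads. Beside these lower members stood the general endothelial markers, with 5 of 5 lower in both AKK libraries. Their sums were 22.9 and 26 CPM in AKK against 83.5 and 60.2 CPM in PBS. Of 3 markers of liver sinusoidal endothelium, 2 were instead higher in both AKK libraries and 1 (Lyve1) was lower. Stab2 read 2.65 and 0.822 CPM in AKK against 0.131 and 0.126 CPM in PBS. Clec4g had 30 and 5 reads in AKK against 0 and 0 reads in PBS. Skeletal muscle markers summed to 0.336 and 0.445 CPM in AKK against 186 and 3.83 CPM in PBS, with 4 of 4 lower. Of 6 fibroblast markers, 2 were lower in both AKK libraries, and the sums overlapped (695 and 972 against 1207 and 464 CPM). Macrophage markers were lower in 3 of 4, with sums of 79.4 and 94.8 against 170.0 and 136 CPM. The part of these cells in the values of the ABCA row and Abcc9 was not tested.

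Members that handle cellular cholesterol and phospholipids leaned lower. The log2 fold changes of 6 of 6 tested members were negative (median -0.47), where 8433 of all 17479 genes tested were negative. Of all 38 tested ABC members, these included, 28 were negative (median -0.28), so the lean was not particular to this role. Of the 6, 0 reached an unadjusted p under 0.05 in edgeR or was called by DESeq2. Abca1, which loads cholesterol onto apolipoprotein A-I, read 95.5 and 78.0 CPM in AKK against 154 and 66.8 CPM in PBS, and PBS 1 alone stood out. Abcg1, which passes cholesterol to high-density lipoprotein, read 2.34 and 3.60 CPM in AKK against 7.03 and 4.63 CPM in PBS, lower in both AKK libraries (log2 fold change -0.97, SE 0.43, adjusted p = 0.352 in edgeR). Abca3, the phospholipid transporter of lung surfactant bodies, read 57.8 and 83.1 CPM in AKK against 90.5 and 108 CPM in PBS. Abca7 read 28.5 and 27.9 CPM in AKK against 42.5 and 34.1 CPM in PBS, so both of these were lower in both AKK libraries as well. Abca2, of lysosomal membranes, and Abcg4 overlapped, at 51.4 and 66.2 CPM against 56.9 and 69.7 CPM and at 0.46 and 0.223 against 0.787 and 0.357 CPM. Without PBS 2 the median of this group was -0.74, and without PBS 1 it was -0.28.

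Transporters of organelles differed little, with a median log2 fold change of -0.12 over 9 members and none called by edgeR or DESeq2 (0 with an unadjusted p under 0.05). In peroxisomes, Abcd3, which imports branched fatty acids and bile acid precursors, read 67.3 and 88.1 CPM in AKK against 88.8 and 108 CPM in PBS. Abcd2 had 11 and 5 reads against 28 and 6. In mitochondria, Abcb10, tied to haem synthesis, read 35.7 and 33.5 against 36.6 and 31.2 CPM, and Abcb8 21.2 and 23.7 against 21.4 and 24.1 CPM. Abcb6 lay just above PBS in both AKK libraries, at 0.743 and 0.565 CPM against 0.506 and 0.505 CPM. In lysosomes, Abcd4, which takes part in cobalamin export, read 28.0 and 17.3 CPM in AKK against 20.9 and 19.1 CPM in PBS, and Abcb9, a peptide transporter, 2.32 and 2.26 against 2.47 and 3.60 CPM. Of the soluble ABC proteins, Abcf1 was slightly higher in both AKK libraries at 161 and 162 CPM against 147 and 148 CPM (log2 fold change 0.12, SE 0.18, adjusted p = 0.751 in edgeR). Abcf3 lay lower, at 30.5 and 34.6 CPM in AKK against 37.1 and 39.3 CPM in PBS, and Abce1 and Abcf2 overlapped. Abcg3, a rodent gene related to Abcg2, read 4.18 and 4.06 CPM in AKK against 7.72 and 5.13 CPM in PBS.

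Of Slco2a1, Slco3a1, Slco4a1 and Slco5a1, which belong to other SLCO subfamilies, 1 lay above both PBS libraries in both AKK libraries and 3 lay below both, where 26.7% and 24.7% of all genes did. Slco3a1, a widely expressed prostaglandin and thyroxine carrier, read 4.90 and 3.68 CPM in AKK against 2.04 and 1.41 CPM in PBS. Both AKK libraries were higher (log2 fold change 1.31, SE 0.43, unadjusted p = 0.024 and adjusted p = 0.274 in edgeR, and adjusted p = 0.0766 in DESeq2). Slco5a1, an orphan member, read 0.425 and 3.05 CPM in AKK against 7.03 and 4.16 CPM in PBS (log2 fold change -1.69, SE 0.89, adjusted p = 0.41 in edgeR). Slco4a1, a thyroid hormone carrier, read 0.531 and 2.14 CPM in AKK against 2.72 and 3.72 CPM in PBS (log2 fold change -1.27, SE 0.71, adjusted p = 0.433 in edgeR). Both were lower in both AKK libraries and lowest in AKK 1. Slco2a1 had the most reads of all members, and its 322 and 305 CPM in AKK lay just under the 324 and 364 CPM in PBS (log2 fold change -0.13, SE 0.21, adjusted p = 0.773 in edgeR). Slco1a5, of the SLCO1 subfamily, overlapped between the groups, with 8 and 12 reads in AKK against 23 and 9 reads in PBS.

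Among the remaining SLC22 genes, Slc22a18 and Slc22a23 stood apart in opposite directions. Slc22a18 (ENSMUSG00000000154.16), an imprinted gene of a cation-carrier-like protein, read 1.49 and 0.908 CPM in AKK (84 and 53 reads) against 0.131 and 0.252 CPM in PBS (7 and 12 reads). Both AKK libraries were higher (log2 fold change 2.64, SE 0.62, adjusted p = 0.2 in edgeR and 0.0408 in DESeq2). Slc22a23 read 127 and 168 CPM in AKK against 331 and 216 CPM in PBS, lower in both AKK libraries (log2 fold change -0.89, SE 0.28, adjusted p = 0.263 in edgeR and 0.0886 in DESeq2). The carnitine carriers overlapped between the groups. Slc22a5 (OCTN2), the main carnitine importer, read 10.2 and 10.9 CPM in AKK against 9.58 and 10.7 CPM in PBS (log2 fold change 0.06, SE 0.26). Its chromosomal neighbours Slc22a21 and Slc22a4, a carrier of ergothioneine, did so too, at 2.42 and 2.23 CPM against 3.21 and 2.14 CPM and at 3.77 and 1.39 CPM against 2.36 and 2.44 CPM. Slc22a15 read 8.49 and 12.3 CPM in AKK against 12.9 and 12.2 CPM in PBS. Slc22a17, a receptor for lipocalin 2, overlapped widely, at 5.63 and 0.514 CPM in AKK against 3.73 and 1.11 CPM in PBS.

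The filter left out 15 of the 68 members, and for these counts are given without a test. Besides Abcg5, Abcg8, Abcc6, Abcc8, Slco1a1, Slco1a4, Slc22a14 and Slc22a30, they were Abca4, Abca12, Abca13, Abca14, Abca17, Slc22a13 and Slc22a26, with 12 to 24 reads each in all. Abca4, the retinal transporter, had 5 and 3 reads in AKK against 7 and 9 reads in PBS. Abca12, of skin lipids, had 9 and 2 against 6 and 5 reads, and Abca13 had 2 and 1 against 5 and 5 reads. Abca17 had 1 and 1 reads in AKK against 6 and 5 reads in PBS. Their ratio was 0.16 (95% counting interval 0.0172 to 0.732, which leaves out the spread between libraries). Of the 22 matching symbols under 10 reads, 14 had 0 reads in all 4 libraries. Among those 14 were the kidney carriers Slc22a2 (OCT2), Slc22a6 (OAT1) and Slc22a12 (URAT1), and Slco1a6.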

How the data were processed

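Total RNA of liver tumours was sequenced as paired reads on an Illumina instrument, per the labels. The authors deposited whole-number counts of reads for each gene, not normalized, in tables laid out as STAR writes them. STAR 2.5.2 and RSEM 1.2.31 appear in the submitters' processing notes. The build is not given in the sources used here. Such counts hold reads that map to 1 place, so near-identical genes lose or split reads. The column of the gene's own strand (95.4 to 96.2% of strand-assigned reads) was used. The summary rows, left out, held 8.97 to 12.3% unmapped, 4.2 to 6.66% multimapping, 11.4 to 13.5% outside genes and 1.18 to 1.37% ambiguous reads.

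Symbols came from a table of gene names, and 48058 of 48526 identifiers matched without version. AKK was compared with PBS in edgeR 4.0.16 under R 4.3.3 with TMM scaling, filterByExpr and group as the only term; the two-sided quasi-likelihood test was glmQLFTest after legacy glmQLFit, with Benjamini-Hochberg adjustment over the 17479 genes kept and a threshold of 0.05. Log2 fold changes are AKK over PBS with a prior count of 0.125, and standard errors (SE) come from the F statistic. DESeq2 1.42.0, limma-voom (limma 3.58.1), 2 other scalings, 3 other filters, the replicate block, unstranded counts and leaving out each library were alternatives. RPKM used exon lengths of GENCODE M21. The fit was tested on simulated data. Members, roles and lists were chosen with earlier results of these data known. Any member may be named. Values in every library are given at least for members past the threshold in edgeR or DESeq2, the 12 with the smallest edgeR p in each direction, the hepatocyte transporters and the 2 most abundant members of each role. A few members are counted in the totals but are not reported here by name.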

Additional observations from a re-analysis of the deposited data

How the results depend on the processing

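The count of genes called by edgeR was 1 with the main settings, 3 with upper-quartile scaling, 631 with no filter on low counts, 209 with the replicate block, 878 in DESeq2 and 0 in limma-voom (2509 genes at an unadjusted p under 0.05), and ran from 0 to 324 with a library left out. Members called were 0 with the main settings, 8 with no filter, 2 with the replicate block (Abca8a and Slco1b2), 7 in DESeq2, 0 in limma-voom, and 0 to 2 with a library left out. The replicate number gives no known pairing: deviations of libraries with the same number correlated at -0.0369 across genes. Members above both PBS libraries were 3 under a filter of 1 CPM in 2 libraries, which tests 42 members, and 10 to 20 with a library left out. Members below both were 26 to 33 with a library left out. The share over all genes was not taken under these settings, and a single library in a group makes any gene separate more easily. These counts therefore cannot be read as particular to the members.

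Of role medians (roles with 3 or more tested members), that of the canalicular exporters (-0.03) was 1.76 with no filter and 1.74 with a filter of 10 reads summed, since Abcg5 and Abcg8 then enter, -0.26 under the 1 CPM filter, -0.3 with the replicate block and in limma-voom, and 0.12 to 2.58 with a library left out. That of the SLCO1 and SLCO2B carriers (-0.65) was 5.94 and 5.92 under the first 2 filters, since Slco1a1 and Slco1a4 enter, and -0.59 to 6.82 with a library left out. The ABCA lipid group (-0.47) gave -0.58 with unstranded counts and -0.74 to -0.28 with a library left out. Organelle transporters ranged from -0.28 to -0.03, soluble ABC proteins from -0.4 to -0.06 and the other SLCO genes from -1.35 to -0.38 with a library left out. Where no cause is given, the cause was not tested. The 12 members with an unadjusted p under 0.05 in edgeR kept their direction wherever they were tested. The groups of all 12 lay apart, so leaving out a library could not turn it. The other settings reuse the same libraries, so this adds no independent support. Depth limits members under 1 CPM, where a few reads decide the fold. The 2 libraries per group limit all tests.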
